A study of Mus musculus with 16 samples.

Results

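Leukocyte integrins and the proteins that switch them on were examined as 10 genes, chosen by symbol, of 49585 genes in the deposited count tables. They are 4 genes of the β2 integrins (Itgb2, Itgam, Itgal and Itgax), 3 genes of the β1 and β7 integrins (Itgb1, Itga4 and Itgb7) and 3 activators (Tln1, Fermt3 and Apbb1ip). All 10 were found in both tables and all 10 passed the filter on low counts in each of the 4 comparisons made. The cells were neutrophils that had been sorted by flow cytometry from the bones of C57BL/6 mice aged 8 to 12 weeks, and RNA was sequenced in 16 libraries, 4 in each of 4 groups. P2KO carries Vav:cre and floxed PHD2 (gene Egln1), and P2WT is its wild-type control. P2H2KO carries Vav:cre with both PHD2 and HIF2 (gene Epas1) floxed, and P2H2WT is the wild-type control of that line. The Vav promoter drives Cre in blood-forming cells at large, so the deletion is not limited to neutrophils. PHD2 is an oxygen sensor that marks HIF proteins for breakdown, and the title of the series asks how HIF2α bears on neutrophil movement.

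An integrin is a pair of one α and one β subunit that spans the membrane and grips ligands on other cells or in the matrix. Neutrophils rely on the β2 integrins to arrest on vessel walls and to crawl, and inherited loss of β2 or of kindlin-3 causes leukocyte adhesion deficiency. Integrins rest in a bent, weakly binding state, and talin-1 and kindlin-3 bind the β tail and switch them to the extended state, with RIAM linking the small GTPase Rap1 to talin.

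Itgam and Itgax are neighbours on chromosome 7 and paralogues, yet Itgam stood far above Itgax per length of exon in every library (32.2 to 71.0 against 3.01 to 5.40 CPM, depth-scaled counts, per kilobase). Their promoters are therefore shown side by side, as the 250 bases before each RefSeq start on GRCm38.p6, both on the plus strand. The Itgam window is chr7:128062390-128062639 and the Itgax window is chr7:128129300-128129549. Capitals mark matches on either strand to ACGTG or GCGTG, the core of the hypoxia response element bound by HIF, and to GAGGAA, a core of sites for ETS factors such as PU.1.
Itgam: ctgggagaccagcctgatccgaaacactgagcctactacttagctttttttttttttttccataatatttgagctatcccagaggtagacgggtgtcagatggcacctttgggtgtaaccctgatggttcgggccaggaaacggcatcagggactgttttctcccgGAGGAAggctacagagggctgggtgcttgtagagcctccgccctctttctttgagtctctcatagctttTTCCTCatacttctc
Itgax: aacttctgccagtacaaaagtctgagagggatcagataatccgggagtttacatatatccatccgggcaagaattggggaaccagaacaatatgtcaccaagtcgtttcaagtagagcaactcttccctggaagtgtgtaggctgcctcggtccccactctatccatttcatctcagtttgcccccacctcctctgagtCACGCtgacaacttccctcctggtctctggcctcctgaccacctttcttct

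The Itgam window held GAGGAA at 84 bases before the start on the gene's strand and at 15 bases on the other strand, and it held neither hypoxia core. The Itgax window held 1 hypoxia core, GCGTG at 51 bases before the start on the other strand, and no GAGGAA. Windows were matched for 8 of the 10 genes, all but Itgb2 and Itgal, and Itgax was the only one of the 8 with a hypoxia core, which 38.6% of 32851 mouse windows of this length hold. GAGGAA, held by 23.3% of all windows, was also found once each in the windows of Itgb1 and Tln1. These matches describe letters only and do not show binding.

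The libraries held 23450746 to 28601284 counts each, and the 24 pairs of libraries within groups all differed by more than sampling noise (chi-square per degree of freedom 11.5 or more). Nothing in the labels says that libraries came from separate animals, so the p-values measure only the spread between these libraries. Neither Egln1 nor Epas1 was called between the genotypes of either line (edgeR adjusted p = 1 in each case). The log2 fold changes in the P2 and P2H2 lines were 0.04 (SE 0.09) and 0.03 (SE 0.08) for Egln1. For Epas1 they were 0.30 (SE 0.375) and 0.66 (SE 0.295). The mean of Epas1 was 5.65 CPM in P2H2KO and 3.555 CPM in P2H2WT, so it was not lower in the group labelled as deleted for it. Counts are summed over whole genes and cannot show a deleted exon, so the groups are named by their labels. Markers of late neutrophil granules, led by Ngp, summed to 26077 to 64883 CPM (counts scaled to a common library total, the usual unit for comparing libraries of different depth) per library and the 10 mature neutrophil markers to 14453 to 39588 CPM. Markers of other marrow cells were present too. Erythroid markers, at 23833 to 49089 CPM, were as high as the neutrophil lists. They summed to 43222 CPM in P2KO replicate 5, above its late granule markers (27928), and to 23833 CPM in P2KO replicate 6, below them (57716). Eosinophil, basophil and mast cell markers were at 2401 to 5229 CPM. Monocyte and macrophage markers were at 1961 to 3163 CPM and T and NK cell markers at 61.6 to 104 CPM. No marker of any of the 11 lists was at 0 in every library. In such bulk samples, fewer cells of a type and less RNA per cell cannot be told apart.

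None of the 10 genes was called in any comparison. In P2KO against P2WT, 0 of 10 had an adjusted p under 0.05 by edgeR's quasi-likelihood test, where 0.0437% of all genes tested were called. DESeq2 called 0 of 10, against a background of 0.168%, and 0 of 10 had an unadjusted edgeR p under 0.05, against 3.49%. In P2H2KO against P2H2WT the counts were again 0 of 10 by edgeR (background 0.0744%), by DESeq2 (0.319%) and at an unadjusted p under 0.05 (2.63%). The groups overlapped for every one of the 10 genes in both lines, where 2.25% of genes in the P2 line and 1.71% in the P2H2 line had groups that did not overlap. A count of 0 among 10 genes is close to these backgrounds and is no result about the genes, so the 95% intervals are given to say how large a difference the libraries leave room for.

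**Figure D1:**
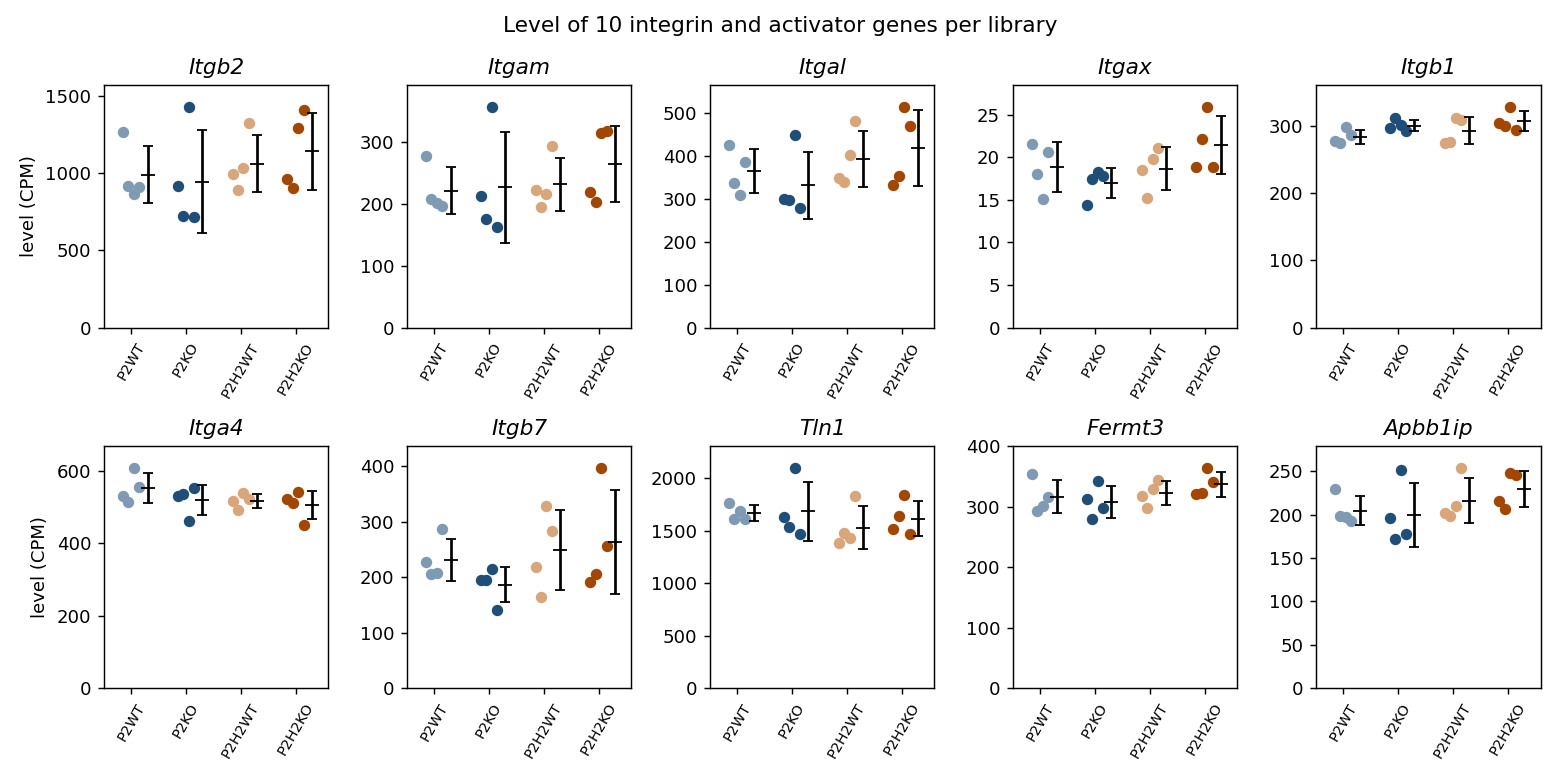
Level of each gene in CPM (vertical axis, from 0) in the 4 groups, 1 dot per library, with the mean and SD of 4 libraries beside the dots. The groups overlap in every panel, and 1 library of P2KO and 1 of P2WT stand high for Itgb2 and Itgam.

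Itgb2 encodes the β2 subunit, which every leukocyte integrin of the CD11 family needs to reach the surface. It was at 918, 724, 1431 and 716 CPM in P2KO replicates 1, 5, 6 and 9, and at 917.5, 866, 913 and 1266 CPM in P2WT replicates 3, 4, 7 and 10. Both groups thus held 1 high library, and the lowest values were in P2KO. The log2 fold change was -0.05 (SE 0.24), and its 95% interval runs from a fold of 0.665 to 1.40. In the other line Itgb2 was at 965, 903, 1295 and 1413 CPM in P2H2KO replicates 11, 12, 15 and 17, and at 994, 894, 1036 and 1325 CPM in P2H2WT replicates 13, 14, 16 and 18. Here 2 deficient libraries and 1 control library were high, and the log2 fold change was 0.11 (SE 0.17).

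Itgam encodes αM, which pairs with β2 to form Mac-1, the receptor with which neutrophils bind complement-coated particles, fibrinogen and ICAM-1. Its levels were 212, 176, 357 and 162 CPM in P2KO and 209, 201, 197 and 277 CPM in P2WT, with the replicates in the same order as above. They were 219.9, 202, 315 and 318 CPM in P2H2KO and 222, 194, 215 and 294 CPM in P2H2WT. The high libraries were the same ones as for Itgb2. The log2 fold changes were 0.05 (SE 0.25) in the P2 line and 0.19 (SE 0.18) in the P2H2 line, with intervals of 0.702 to 1.53 and 0.862 to 1.51 as folds.

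Itgal encodes αL, the partner of β2 in LFA-1, which binds ICAM-1 in firm arrest. It was at 299, 297, 448 and 278 CPM in P2KO and at 336, 309, 384 and 424 CPM in P2WT. The other line gave 333, 352, 513 and 469 CPM in P2H2KO and 348, 339, 401 and 480.3 CPM in P2H2WT. Replicate 6 was the highest of P2KO and replicate 10 the highest of P2WT, and the log2 fold change was -0.12 (SE 0.17). Without P2KO replicate 6 it was -0.31 with an unadjusted p of 0.0164 (edgeR), which did not pass after adjustment over all genes. Without P2WT replicate 10 it was -0.04, so its size depended on which high library was left out. In the P2H2 line the log2 fold change was 0.09 (SE 0.16), and it was -0.01 with the m or f suffix of the library titles as a covariate. The suffix was f in P2H2KO replicates 15 and 17 and in P2H2WT replicate 16, and m in the rest of that line. In the P2 line it was f in P2KO replicate 9 and in P2WT replicates 7 and 10, and m in the rest. Suffix and genotype were thus unevenly mixed in both lines.

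Itgax encodes αX, the α subunit best known from dendritic cells and macrophages, and it had by far the fewest counts of the 10. Its levels were 14.4, 17.5, 18.3 and 17.8 CPM in P2KO against 18.02, 15.1, 20.6 and 21.6 CPM in P2WT, and 18.9, 22.1, 25.9 and 18.8 CPM in P2H2KO against 18.6, 15.3, 19.8 and 21.1 CPM in P2H2WT. The deficient libraries reached lower than their controls in the P2 line and higher in the P2H2 line, with wide overlap in both. The log2 fold changes were -0.14 (SE 0.13) and 0.20 (SE 0.13). The difference between these effects, -0.35 (SE 0.19), had the smallest unadjusted p of the 10 genes in that test (0.0875 by edgeR, adjusted p 0.999).

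Itgb1 encodes β1, the subunit shared by the receptors for collagen, laminin and fibronectin, and it was the steadiest of the set. Its levels spanned 292 to 311 CPM in P2KO, 274 to 297 CPM in P2WT, 294 to 327 CPM in P2H2KO and 274 to 311 CPM in P2H2WT. The log2 fold changes were 0.09 (SE 0.06) and 0.07 (SE 0.08). The 95% intervals, 0.965 to 1.18 and 0.930 to 1.18 as folds, were the narrowest of the 10 genes in both lines.

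Itga4 encodes α4, which pairs with β1 to bind VCAM-1 and fibronectin and with β7 to bind the gut addressin MAdCAM-1, and in marrow it helps to hold immature cells. It was at 531, 535, 460.2 and 552 CPM in P2KO and at 515, 608, 555 and 529.8 CPM in P2WT. The other line gave 522, 511, 541 and 449.6 CPM in P2H2KO and 516, 492, 538 and 521 CPM in P2H2WT. The lowest value of each deficient group came from replicates 6 and 17, which were the highest of their groups for Itgb2. The log2 fold changes were -0.08 (SE 0.09) and -0.03 (SE 0.08).

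Itgb7 encodes β7, the partner of α4 and of αE, best known from lymphocytes that home to the gut. It was at 196, 196, 215 and 141 CPM in P2KO and at 207, 207, 287 and 227 CPM in P2WT. Of the 4 P2KO libraries, 3 lay below every P2WT library and replicate 6 lay among them. The log2 fold change of -0.30 (SE 0.15, interval 0.643 to 1.03 as a fold) had the smallest unadjusted p of the 10 genes in this line, 0.0768 by edgeR, with an adjusted p of 1. Without P2KO replicate 6 it was -0.37 with an unadjusted p of 0.0345 (adjusted 0.406), and without P2WT replicate 7 it was -0.19 with an unadjusted p of 0.214. In the P2H2 line Itgb7 ranged from 192 to 398 CPM in the deficient and from 165 to 329 CPM in the control libraries, so its spread was wide, and the log2 fold change was 0.08 (SE 0.27) or -0.10 with the title suffix as a covariate. Monocyte and macrophage markers were also lower in P2KO: all 15 had a negative log2 fold change, where 57.8% of all genes were above 0. Their sum was 1997 to 2187 CPM in P2KO and 2308 to 2678 CPM in P2WT. Of the 15, 0 were called by edgeR and 1 by DESeq2 (background 0.168%). At an unadjusted edgeR p under 0.05 there were 5, against 3.49% of all genes, and 2 had groups that did not overlap, against 2.25%. In the P2H2 line 11 of the 15 had negative and 4 positive values (median -0.29), while the Itgb7 value was 0.08. The 9 T and NK cell markers also all had negative values in the P2 line, with sums of 61.6 to 85.7 CPM against 86.8 to 100.1 CPM. Of these 9, 0 were called by edgeR and 2 by DESeq2, against the same shares of all genes. An unadjusted edgeR p under 0.05 was found for 3, and 2 had groups that did not overlap. In the P2H2 line 4 of the 9 were above 0 and 5 below. The part of either cell type in the Itgb7 values was not tested.

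The 3 activators had log2 fold changes between -0.02 and 0.08. Tln1 encodes talin-1, which ties integrin tails to actin, and it was at 1626, 1535, 2097 and 1467 CPM in P2KO and at 1608, 1682, 1609.9 and 1761 CPM in P2WT. It was at 1511, 1639.95, 1835 and 1468 CPM in P2H2KO and at 1384, 1474, 1431 and 1823 CPM in P2H2WT. P2KO replicate 6 and P2H2WT replicate 18 were well above the rest of their groups, the groups overlapped in both lines, and the log2 fold changes were 0.03 (SE 0.13) and 0.08 (SE 0.12). Fermt3, which encodes kindlin-3, the kindlin of blood cells, spanned 280.4 to 343 CPM in P2KO, 293 to 355 CPM in P2WT, 320.4 to 365 CPM in P2H2KO and 297 to 345 CPM in P2H2WT. For Fermt3 the P2 line gave a log2 fold change of -0.02 (SE 0.09) and the P2H2 line 0.07 (SE 0.08). Apbb1ip, which encodes RIAM, spanned 172 to 252 CPM in P2KO, 193 to 229 CPM in P2WT, 207 to 248 CPM in P2H2KO and 199 to 254 CPM in P2H2WT. Apbb1ip had log2 fold changes of -0.02 (SE 0.13) and 0.08 (SE 0.10), and the high libraries were again those high for Itgb2.

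As a set, the 10 genes had a median log2 fold change of -0.04 in the P2 line, with 3 values above 0 and 7 below, where the median of all genes tested was 0.02 and 57.8% of genes were above 0. In the P2H2 line the median was 0.08, with 9 values above 0 and Itga4 below, where the median of all genes was 0.00 and 50.5% were above 0. These signs held under the other library scalings, while Itgal and Itgb7 turned negative in the P2H2 line with the title suffix as a covariate, and they were not steady when 1 library was left out. In the P2 line the signs of Itgb2, Itgam, Tln1, Fermt3 and Apbb1ip each turned in at least 1 such fit, and in the P2H2 line those of Itgb2, Itgal, Itga4 and Itgb7 did, so these tallies are weak. Without P2KO replicate 6 the P2 values were -0.32 for Itgb2, -0.26 for Itgam and -0.10 for Tln1. Without P2WT replicate 10 Itgb2 was at 0.09 and Itgam at 0.18. In the P2H2 line Itgb2 was at -0.01 and Itga4 at 0.02 without P2H2KO replicate 17, and Itgal was at -0.02 and Itgb7 at -0.19 without P2H2KO replicate 15. Neutrophil markers moved the same way as the integrins in the P2H2 line: all 10 late granule markers (median log2 fold change 0.14) and all 10 mature neutrophil markers (median 0.20) had positive values. Of either list 0 were called by edgeR or by DESeq2, and 1 mature neutrophil marker had an unadjusted edgeR p under 0.05. All 6 early granule markers also had positive values there (median 0.19), while all 9 erythroid markers (median -0.19) and all 8 B cell markers (median -0.36) had negative values. None of these was called by edgeR or by DESeq2, and 0 had an unadjusted edgeR p under 0.05. B cell markers had r = -0.915 with Fermt3 in that line (rho -0.786, exact permutation adjusted p 0.0177 for r and 0.124 for rho over 8 libraries, r without 2 libraries -0.647) and -0.878 with Itgb1 (rho -0.810, exact permutation adjusted p 0.0278 and 0.109, r without 2 libraries -0.666). The part of these shifts in the integrin values was not tested.

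**Figure D2:**
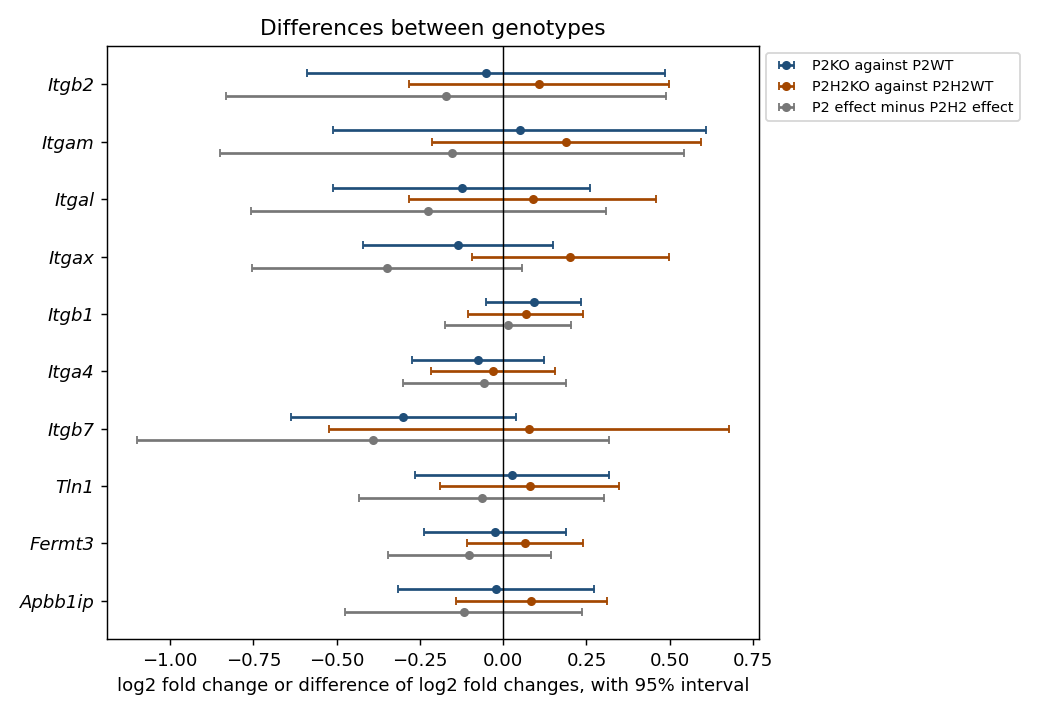
Log2 fold change of each gene, deficient against control, in the P2 line (blue) and the P2H2 line (orange), and the difference of these effects (grey), with 95% intervals. Every interval crosses 0, and those of Itgb1, Itga4 and Fermt3 are narrow.

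The 2 effects were then compared directly, as the P2 effect minus the P2H2 effect over all 16 libraries, which asks whether deleting HIF2 along with PHD2 alters the outcome. Of the 10 genes, 0 were called by edgeR, where 0% of genes tested were called, and 0 by DESeq2, where the share was also 0%. At an unadjusted edgeR p under 0.05 there were 0 of 10, against 1.51% of all genes. The values ran from -0.39 for Itgb7 (SE 0.33) to 0.01 for Itgb1 (SE 0.09), with a median of -0.14 and 9 of 10 below 0, where the median of all genes was 0.00. For Itgb2 the interval of the difference ran from -0.83 to 0.49 and for Itgb1 from -0.17 to 0.20, so the room left differed widely between genes.

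The wild-type groups of the lines were compared as a gauge of how far the lines themselves differ. Of all genes tested, 1.22% were called by edgeR and 3.08% by DESeq2, 11.4% had an unadjusted p under 0.05, and 7.81% had groups that did not overlap. Of the 10 genes, 0 met any of these criteria. The values ran from -0.11 for Itgal (SE 0.13) to 0.12 for Tln1 (SE 0.10), with adjusted p of 0.693 or more by edgeR. Line, table and any difference in handling cannot be told apart in this comparison.

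Levels can be compared between genes only per length, and the order depended on which length was used. Over all annotated exon bases (GENCODE M21), Itgb2 was first with 339.5 ± 76.5 CPM per kilobase (SD, n = 16) and Tln1 next with 165.5 ± 19.0. Itgb7 (84.0 ± 23.3) and Itgb1 (72.4 ± 3.75) followed and did not differ beyond their spread, with Itgb7 above in 11 of 16 libraries. Itgal (57.2 ± 11.1) and Fermt3 (55.5 ± 4.12) could not be ordered either, with Itgal above in 9 libraries. Itgam (46.9 ± 11.5), Itga4 (37.5 ± 2.65) and Apbb1ip (28.6 ± 3.51) came next, and Itgax was last with 3.96 ± 0.607 in a range that no other gene reached.

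The place of Itgam rests on an annotation problem. The gene (chromosome 7, 128062640 to 128118491, plus strand) shares 3450 of its 5024 exon bases with the predicted gene Gm49368 on the same strand. Gm49368 had 2 to 9 counts per library while Itgam had 4222 to 9027, and how reads on shared exons were counted is not given in the sources used here. HTSeq in its usual mode drops such reads. Over the 1574 exon bases shared with no other gene, Itgam stood at 149.7 ± 36.6 CPM per kilobase, in the 3rd place behind Tln1 (171.8 ± 19.7) and above Itgb7 in 16 of 16 libraries. The length used cancels when groups are compared for 1 gene. Over the longest coding transcript, Fermt3 (124.1 ± 9.20) moved to the 3rd place and Apbb1ip (76.6 ± 9.39) came level with Itgb1 (77.4 ± 4.01). Itgb2 stayed first and Itgax last under all 3 lengths.

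**Figure D3:**
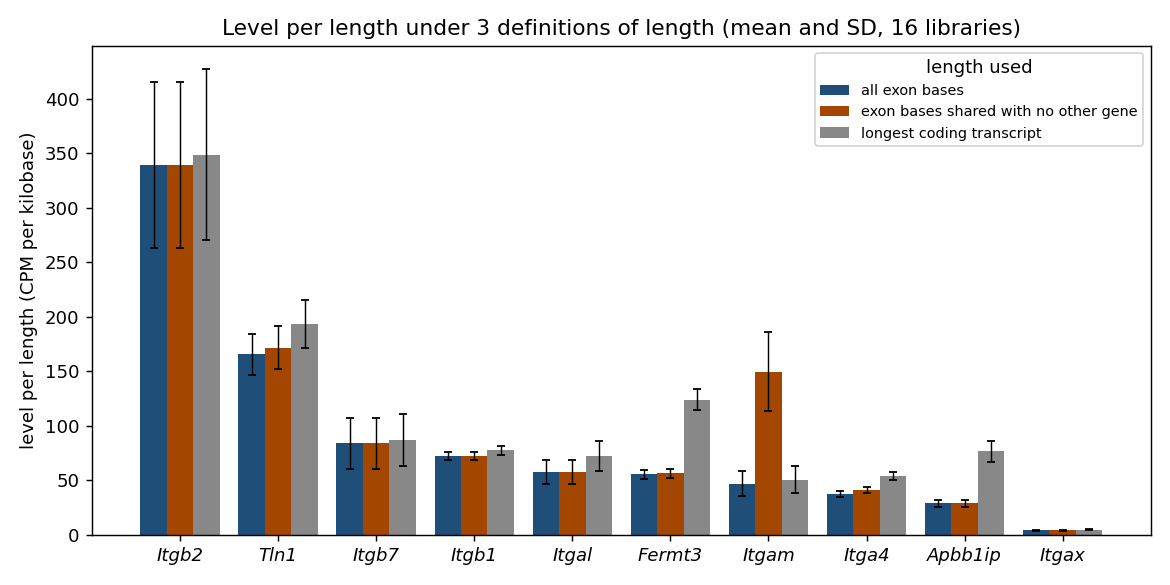
Level per length of the 10 genes (CPM per kilobase, mean and SD over 16 libraries) under 3 definitions of length. Itgb2 is highest and Itgax lowest under each, while Itgam stands at 46.9 or 149.7 depending on whether shared exon bases count.

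Ratios between subunit genes, which are ratios of RNA and do not measure the pairing of the proteins, were compared within each line by exact two-sided permutation tests. There were 18 tests, and 4 against 4 libraries cannot give a p below 0.0286. Over all exon bases, Itgb2 stood at 2.94 ± 0.175 (SD, n = 16) times the sum of its 4 α subunit genes (Itgam, Itgal, Itgax and Itgad), which falls to 1.54 ± 0.0629 over unshared bases. Itgal made up 49.9% ± 2.27 and Itgam 40.6% ± 3.05 of that α sum over all exon bases, and 26.2% ± 1.86 and 67.9% ± 2.82 over unshared bases, so which of them leads depends on the length used. Of the β genes, Itgb2 made up 68.1% ± 3.95 of the sum of Itgb1, Itgb2 and Itgb7.

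The ratio of Itgb2 to Itgam counts, which needs no length when groups are compared, was the only one whose groups did not overlap. It was 4.39, 4.47, 4.11 and 4.44 in P2H2KO and 4.48, 4.598, 4.81 and 4.503 in P2H2WT, so every deficient library lay below every control. The exact permutation p was 0.0286, the smallest possible, and 0.514 after Benjamini-Hochberg adjustment over the 18 tests. In the P2 line the ratio was 4.22 ± 0.187 in P2KO and 4.48 ± 0.153 in P2WT (n = 4 each), with overlap and an exact permutation p of 0.143 (adjusted 0.643). Itgb7 made up 47.6% ± 4.19 of Itgb1 plus Itgb7 in P2KO and 54.4% ± 3.89 in P2WT (n = 4 each, exact permutation p 0.0571, adjusted 0.514), and 54.8% in both groups of the other line.

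The variation among libraries was shared among some of the genes and not others. Correlations of log2 CPM were computed over the 8 libraries of each line for 45 pairs per line, with exact permutation p adjusted over 90 relations. By Pearson's r 14 of 45 pairs passed in each line, all of them positive, but by Spearman's rho, adjusted in the same way, only 1 passed in the P2 line (Itgb2 with Itgam) and 0 in the P2H2 line. Itgb2 and Itgam had r = 0.982 in the P2 line (rho 0.976, exact permutation p 0.000298 for r, adjusted 0.00942, and adjusted 0.0357 for rho) and r = 0.980 in the P2H2 line (rho 0.905, exact permutation p 0.000942, adjusted 0.00942, and adjusted 0.0821 for rho). Without the 2 libraries farthest from the median of Itgb2, r was 0.947 and 0.971. Itgb2 and Itgal had r = 0.915 in the P2 line (rho 0.833, exact permutation p 0.000769, adjusted 0.00942, and adjusted 0.098 for rho), which dropped to 0.673 without the 2 farthest libraries. Itga4 had no settled relation with Itgb2: r was -0.637 in the P2 line (rho -0.738, exact permutation adjusted p 0.190 and 0.129) and -0.233 in the P2H2 line (rho 0.143, exact permutation adjusted p 0.695 and 0.796). Without the 2 farthest libraries these values were -0.05 and 0.809, so the negative r in the P2H2 line rests on those libraries. In the P2 line, where rho was -0.738, this cannot be decided. The libraries left out are the extremes of Itgb2 itself, which narrows its range. Centred on group means over all 16 libraries, r with Itgb2 was -0.563 for Itga4 and 0.973 for Apbb1ip.

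**Figure D4:**
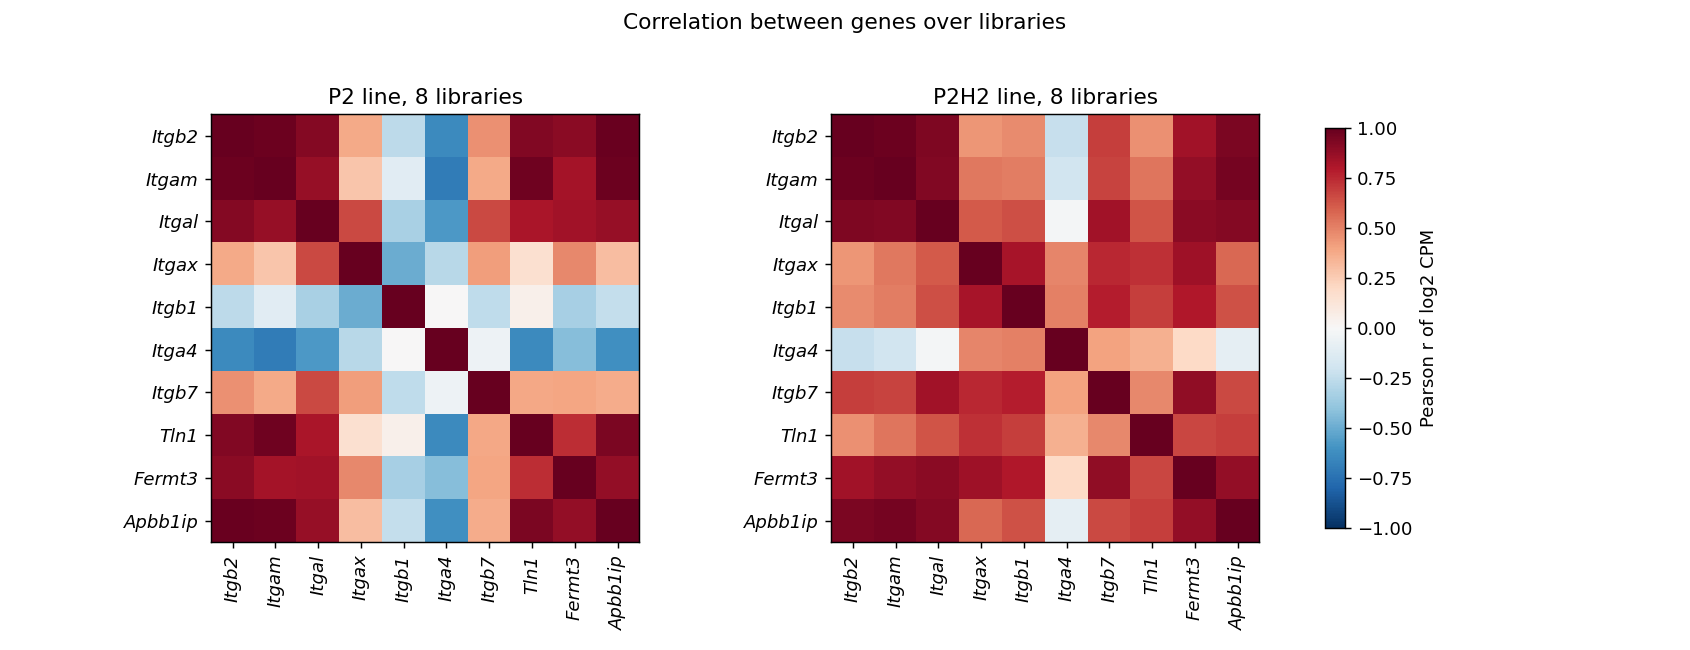
Pearson r of log2 CPM for each pair of the 10 genes over the 8 libraries of the P2 line (left) and of the P2H2 line (right), on a colour scale from -1 to 1. Itgb2, Itgam, Itgal, Fermt3 and Apbb1ip form a block of high values in both lines. Itga4 with Itgb2 is at -0.637 and -0.233, which became -0.05 and 0.809 without the 2 libraries farthest from the median of Itgb2.

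The same libraries also differed in neutrophil and other cell markers, and 60 relations per line between the genes and 6 summed marker lists were computed, with exact permutation p adjusted over 120. By r, 17 passed in the P2 line (13 positive) and 19 in the P2H2 line (10 positive), whereas by rho, adjusted in the same way, 5 and 6 passed. Itgb2 followed the late granule markers (genes such as Ltf, Lcn2, Camp and Ngp, whose products fill the specific and gelatinase granules) with r = 0.997 in the P2 line and 0.995 in the P2H2 line. The rho values were 1.0 and 0.976, the exact permutation p for r 2.48e-05 and 4.96e-05, and the adjusted p 0.00149 and 0.00198 (for rho 0.00298 and 0.0068), and r was 0.985 and 0.993 without the 2 farthest libraries. Itgam followed the mature neutrophil markers with r = 0.986 (rho 1.0, exact permutation p 2.48e-05, adjusted 0.00149, for rho 0.00298, r without 2 libraries 0.991) and r = 0.960 (rho 0.929, exact permutation p 0.000818, adjusted 0.00765, for rho 0.0298, r without 2 libraries 0.973). Itgal was negative with the erythroid markers, with r = -0.901 (rho -0.857, exact permutation p 0.00188, adjusted 0.0141, for rho 0.0714, r without 2 libraries -0.840) and r = -0.872 (rho -0.976, exact permutation p 0.000174, adjusted 0.00417, for rho 0.0068, r without 2 libraries -0.916).

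Itgb7 was also set beside both kinds of list. Its r with the monocyte and macrophage markers was 0.823 in the P2 line (rho 0.786, exact permutation p 0.0028, adjusted 0.0177, for rho 0.124, r without 2 libraries 0.711) and 0.896 in the P2H2 line (rho 0.929, exact permutation p 0.00357, adjusted 0.0214, for rho 0.0298, r without 2 libraries 0.900). In the P2H2 line Itgb7 also passed by r with the erythroid markers (r = -0.879, rho -0.905, exact permutation adjusted p 0.0175 for r and 0.0498 for rho). It passed there by r with the B cell markers too (r = -0.855, rho -0.714, exact permutation adjusted p 0.0323 and 0.165). Without the 2 farthest libraries these r values were -0.657 and -0.523. In the P2 line neither passed, at r = -0.495 and -0.628 (exact permutation adjusted p for r 0.371 and 0.204). The r of Itgb7 with the late granule markers, 0.473 and 0.651, did not pass (exact permutation adjusted p for r 0.386 and 0.194). Without the 2 farthest libraries it was 0.692 and 0.879, close to the values with the monocyte and macrophage markers. For relations with a list, the libraries left out are those farthest from the median of that list, so they can differ between lists. The difference between the lists was not tested. Itga4 passed with neither neutrophil list, at r = -0.642 and -0.405 with the mature neutrophil markers (rho -0.714 and 0.0714, exact permutation adjusted p for r 0.196 and 0.498). Without the 2 farthest libraries r was -0.09 and 0.667, and with the late granule markers the values of -0.623 and -0.298 became 0.0047 and 0.774. The negative r values in the P2H2 line thus rest on those libraries. In the P2 line this cannot be decided, since the libraries left out are the extremes of the list itself, which narrows its range. All values in a library share its total, so a gene that takes more of the counts leaves less for others.

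**Figure D5:**
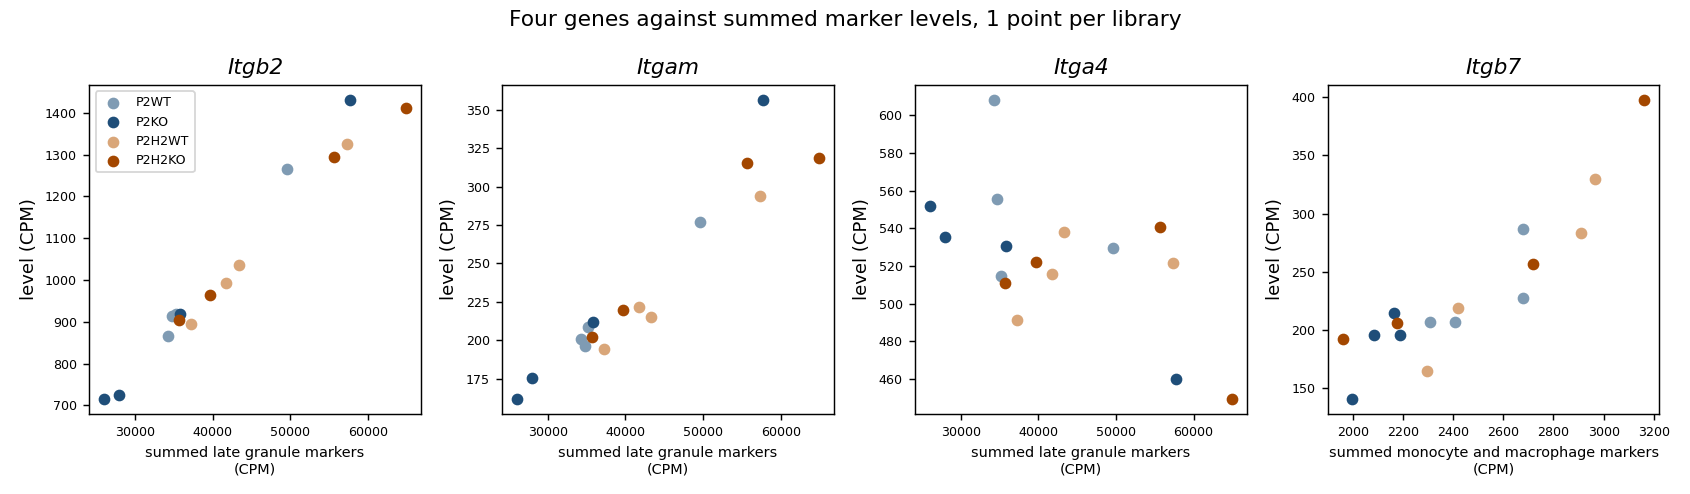
Level of Itgb2, Itgam and Itga4 against the summed late granule markers, and of Itgb7 against the summed monocyte and macrophage markers (both axes in CPM), 1 point per library coloured by group. Itgb2 rises with the late granule markers, with r = 0.997 in the P2 line and 0.995 in the P2H2 line. Itga4 is lowest in the 2 libraries with the most late granule markers and shows no such rise.

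The genes with the most similar pattern, as a description over 16 libraries centred on group means and 9571 genes, were Rac2 (r = 0.997), Atxn10 (0.995) and Lasp1 (0.995) for Itgb2. For Itgam they were Plbd1, Lasp1 and Bmx (each 0.991), and for Itgal Hk2 (0.988), Pcnx (0.985) and Tmem184b (0.984). For Itgb7 they were Mpeg1 (0.990), Psap (0.987) and Otulinl (0.985). For Apbb1ip they were Pxn, which encodes the adhesion adaptor paxillin (0.986), Rab11fip1 (0.985) and Dock5 (0.984). For Fermt3 they were Rnf185 (0.958), Stim2 (0.954) and Rassf5 (0.950), the last encoding RAPL, a Rap1 effector. Tln1 was nearest to Nin (0.969), Stk10 (0.962) and Wdfy3 (0.958). Itgax (Emc1, 0.915), Itgb1 (Ahcyl2, 0.894) and Itga4 (Tpcn1, 0.854) had no neighbour as close.

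The rest of the integrin pathway was taken as 7 lists with 100 genes: other α subunits, other β subunits, the Rap1, talin and kindlin module, negative regulators, signalling behind bound integrins, adhesion site adaptors and integrin ligands. In P2KO against P2WT 87 of the 100 were tested and 0 were called by edgeR or by DESeq2. At an unadjusted edgeR p under 0.05 there were 1 gene above and 2 below, against 3.49% of all genes. This count is close to that share and is no result about the genes, which are named as a description. The gene above was Itga10, a collagen-binding α subunit, at 0.459 CPM in P2WT and 0.695 CPM in P2KO (log2 fold change 0.60, SE 0.21, edgeR p 0.0202). Below were Rasa3, a GTPase-activating protein that switches Rap1 off, at 188 and 155 CPM (-0.26, SE 0.10, edgeR p 0.023), and Cyth1, which encodes cytohesin-1, a binder of the β2 tail, at 86.1 and 62.0 CPM (-0.46, SE 0.20, edgeR p 0.0484). All 3 had an adjusted p of 1. In P2H2WT and P2H2KO, Itga10 was at 0.375 and 0.540 CPM, Rasa3 at 184.5 and 199 CPM and Cyth1 at 55.8 and 58.3 CPM. For Cyth1, P2WT was thus the group that stood apart, and P2KO lay near both groups of the other line. Of the other genes with the smallest p of their lists, Skap1, an adaptor of the RIAM pathway in T cells, was at 2.91 and 2.19 CPM (-0.40, SE 0.18), F11r, which encodes the LFA-1 ligand JAM-A, at 1.64 and 2.57 CPM (0.65, SE 0.31), Itgb5 at 32.0 and 28.6 CPM (-0.15, SE 0.08) and Ptk2, which encodes focal adhesion kinase, at 5.72 and 6.23 CPM (0.13, SE 0.11).

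In P2H2KO against P2H2WT 85 of the 100 were tested and 0 were called by edgeR or by DESeq2. Only 1 gene had an unadjusted edgeR p under 0.05, where 2.63% of all genes did, so it is named as a description. That gene was Vcam1, the ligand of α4β1 and a gene of marrow macrophages and stroma, which was at 274 CPM in P2H2WT and 189 CPM in P2H2KO (log2 fold change -0.53, SE 0.20, edgeR p 0.0233, adjusted p 1). Vcam1 is also 1 of the 15 monocyte and macrophage markers, of which 11 had negative values in this line (median -0.29). Of these 15, 0 were called by edgeR or by DESeq2, 8 were lower at an unadjusted edgeR p under 0.05, where 2.63% of all genes had such a p in either direction, and 2 had groups that did not overlap, against 1.71%. Their part in the Vcam1 value was not tested. Itgad, the fourth α partner of β2, was at 28.8 and 21.3 CPM (-0.44, SE 0.22, edgeR p 0.0715). Itgb3 was at 73.3 and 80.9 CPM (0.14, SE 0.22), Dok1, whose product competes with talin for integrin tails, at 60.3 and 56.2 CPM (-0.10, SE 0.06), and Vav1, an exchange factor for Rac, at 185 and 196 CPM (0.08, SE 0.09). Of the 85 genes, 62 were above 0 and 23 below, where 50.5% of all genes were above 0, and in the P2 line 42 were above and 45 below. Genes measured in the same libraries are not independent, and these signs were not checked with 1 library left out, so these tallies are weak too.

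For the difference of the effects 87 were tested and 0 were called by edgeR or by DESeq2. At an unadjusted edgeR p under 0.05 there was 1, against 1.51% of all genes. Between the wild-type groups edgeR called 1 of 87, the adaptor gene Parva (α-parvin), at 1.91 CPM in P2WT and 0.727 CPM in P2H2WT (log2 fold change 1.38, SE 0.27, adjusted p 0.0432), and DESeq2 called 7, where 1.22% of all genes were called by edgeR and 3.08% by DESeq2.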

How the data were processed

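The authors deposited 2 tables of raw read counts, 1 per line, with 49585 Ensembl identifiers and 8 libraries each, per the file headers. The submitters' processing notes name HTSeq and mm10. The aligner, annotation release, counting mode and use of strand are not given in the sources used here. Groups and replicate numbers came from the titles. Symbols came from GENCODE M21, which matched 49326 identifiers. CPM was computed here from the deposited counts with TMM factors.

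Genes were filtered with filterByExpr and tested with edgeR 4.0.16 (R 4.3.3, limma 3.58.1; robust glmQLFit and glmQLFTest, two-sided), with Benjamini-Hochberg adjustment over all genes tested and a threshold of 0.05. Within-line comparisons and the wild-type comparison used 8 libraries and the difference of effects 16. The procedure was tested on simulated data. Alternatives were DESeq2 1.42.0, other scalings and filters, the title suffix as a covariate, a fit of all libraries and leaving out each library. The 2 other lengths were added after seeing the data.

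The 10 genes and all lists were chosen with earlier results of these data known. All 10 genes are named. From each pathway list the genes with an adjusted p under 0.05, otherwise the 2 with the smallest p within a line, could be named. Similar patterns were ranked among genes with a mean of at least 5 CPM. Promoter windows came from RefSeq.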

Additional observations from a re-analysis of the deposited data

Results flagged for a closer look

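In 5 of 76 sets of 4 libraries examined, 1 library lay further from the rest than Dixon's 95% limit, and chance alone gives about 1 in 20. P2WT replicate 10 was high for 3 genes: Itgb2 at 1266 CPM with the next library at 917.5, Itgam at 277 CPM with the next at 209, and Apbb1ip at 229 CPM with the next at 198. P2KO replicate 6 had 448 CPM of Itgal, with the next library at 299 CPM. In P2H2WT replicate 18 the ratio of Itgb2 to Itga4 counts was 2.54, with the next at 1.93. The 3 genes high in P2WT replicate 10 vary together over libraries, so these values are not independent.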

How the results depend on the processing

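The number of the 10 genes called was 0 under every alternative in every comparison. Of 270 values of single genes under alternatives other than leaving out a library, 3 changed sign, all with the title suffix as a covariate: in the P2H2 line Itgal to -0.0147 and Itgb7 to -0.104, and between wild types Itgax to -0.0638. Of 400 values with 1 library left out, 30 changed sign, and the cause was not tested. In the P2 line the ranges were -0.322 to 0.094 for Itgb2, -0.258 to 0.184 for Itgam, -0.0991 to 0.0814 for Tln1, -0.0785 to 0.0388 for Fermt3 and -0.154 to 0.0424 for Apbb1ip, each lowest without P2KO replicate 6. In the P2H2 line they were -0.0081 to 0.226 for Itgb2, -0.0241 to 0.196 for Itgal, -0.0613 to 0.0243 for Itga4 and -0.187 to 0.245 for Itgb7. For the difference of effects they were -0.0193 to 0.0475 for Itgb1 and -0.189 to 0.00266 for Tln1. Between wild types they were -0.245 to 0.0107 for Itgb2, -0.201 to 0.0557 for Itgam, -0.0764 to 0.0994 for Itgax, -0.261 to 0.0606 for Itgb7 and -0.0896 to 0.00561 for Fermt3. Counts of all genes called moved from 6 to 23 by DESeq2 and 10 with all 16 libraries in the P2 line, and from 10 to 42 by DESeq2 in the P2H2 line. Between wild types they moved from 166 to 419 by DESeq2, 87 with at least 10 counts in every library and 32 with all 16 libraries. No paired analysis was possible because the groups share no replicate numbers. The lengths other than all exon bases were chosen after seeing the data. With 4 libraries a group, differences inside the intervals given cannot be told from 0.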
